A study of Homo sapiens with 8 samples.

Results

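The cholesterol synthesis genes HMGCS1, IDI1, FDFT1, SQLE and LSS, their transcriptional activator SREBF2 and the sterol-sensing regulator INSIG1 were examined in HuCCT1 cells in which BEX2 had been knocked down. HuCCT1 is an established human cholangiocarcinoma (bile duct cancer) cell line. The 7 genes were chosen by name among the 34809 gene names of an Agilent expression array, and all 7 were among the 20450 genes bright enough to be tested. The series holds 8 single-colour arrays of HuCCT1 cells, 2 for each of 4 short hairpin RNA (shRNA) vectors. The vectors shControl and shNontarget are both described as control, and the vectors shBEX2-1 and shBEX2-2 gave BEX2-knockdown sublines. As printed in the study's methods, the second BEX2 target sequence is nearly the reverse complement of the first. The BEX2 vectors therefore cannot be taken as hairpins against different sites. According to the study's methods the BEX2 hairpins were delivered by a retroviral vector. The paper describes control cells with a hairpin against luciferase, and whether these are shControl or shNontarget is not stated. By their names all 4 groups carry a hairpin, and no array is labelled as parental cells. Neither the clonality of a subline nor separate cultures for its 2 arrays are described, and p-values measure only the spread between these arrays, which may be technical.

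Cells make cholesterol from acetyl-CoA through mevalonate, isoprenoid and sterol intermediates. When sterol in the endoplasmic reticulum is low, the membrane-bound precursor SREBP2, the product of SREBF2, is carried by SCAP to the Golgi and cut, and the released fragment switches on the genes of the whole pathway. INSIG1 holds SCAP and SREBP2 back in the endoplasmic reticulum when sterol is plentiful, and is itself a target of SREBP2. SREBF2 also belongs to its own targets. The transcripts of such cells therefore usually move as a group when sterol supply changes.

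The promoter windows of SREBF2 and INSIG1 are shown because these were the genes whose BEX2-knockdown and control arrays did not overlap, and that of HMGCS1 as an example of an enzyme gene. Each run is the 250 bases before a transcription start of the RefSeq annotation (GRCh38.p14), 5′ to 3′ on the gene's strand, with capitals for the sterol regulatory element core TCACNCCAC and for the NF-Y motif CCAAT on either strand. The windows lie at chr22:41832855-41833104 (plus strand), chr7:155297628-155297877 (plus strand) and chr5:43313413-43313662 (minus strand).
SREBF2: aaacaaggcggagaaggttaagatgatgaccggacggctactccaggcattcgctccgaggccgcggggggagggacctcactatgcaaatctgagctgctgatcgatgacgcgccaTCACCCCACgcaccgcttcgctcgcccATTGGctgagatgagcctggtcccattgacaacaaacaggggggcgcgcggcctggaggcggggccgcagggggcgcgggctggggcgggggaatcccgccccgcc
INSIG1: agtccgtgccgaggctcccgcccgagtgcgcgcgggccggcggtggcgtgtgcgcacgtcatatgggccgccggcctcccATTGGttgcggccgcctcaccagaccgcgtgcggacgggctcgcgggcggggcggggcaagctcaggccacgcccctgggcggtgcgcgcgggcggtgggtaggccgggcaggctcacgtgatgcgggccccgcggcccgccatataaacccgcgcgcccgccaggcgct
HMGCS1: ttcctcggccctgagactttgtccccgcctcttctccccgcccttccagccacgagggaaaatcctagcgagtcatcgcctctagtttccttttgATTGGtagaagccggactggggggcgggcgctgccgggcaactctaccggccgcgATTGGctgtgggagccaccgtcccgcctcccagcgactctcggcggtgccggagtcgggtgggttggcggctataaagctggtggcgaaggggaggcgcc
In windows reaching 50 bases past the start, 300 bases in all, the core TCACNCCAC occurred in 1.13% of 35116 RefSeq windows. The SREBF2 window held it, beginning 133 bases before the start, and an inverted CCAAT began 106 bases before the start. CCAAT stood in 34.6% of all windows and in 6 of the 8 windows listed for 5 of the genes (HMGCS1, IDI1, INSIG1, LSS and SREBF2). The Sp1 motif GGGCGG, left in lower case above, stood in 45.0% of all windows and in 8 of these 8. The capitals do not overlap each other in the runs shown. Of the 84 genes of the wider lists used here, 65 had a window, and SREBF2 and MID1IP1 were those that held the core. Only exact matches within these windows were searched, so a gene without one is not shown to lack a sterol regulatory element.

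The targeted gene was lower in both sublines. BEX2 intensity was 71.0 and 55.7 in shControl cells, 115 and 48.8 in shNontarget cells, 11.9 and 11.1 in shBEX2-1 cells, where it was not well above background, and 20.4 and 26.0 in shBEX2-2 cells. With BEX2 well above background on 2 of the 4 knockdown arrays, its fall is a bound. The level in shBEX2-1 cells was at least 3.33-fold lower than in shControl cells (adjusted p = 0.0774 from limma) and at least 4.40-fold lower than in shNontarget cells (adjusted p = 0.0562 from limma). These bounds equal the measured ratios, and neither passed the threshold in the fit of all 4 vectors. In a fit without the shNontarget arrays, the measured log2 difference from shControl was -1.74 in shBEX2-1 cells (adjusted p = 0.00207 from limma). In shBEX2-2 cells it was -1.12 (adjusted p = 0.0132 from limma). In that fit 43.6% and 44.1% of all genes passed the threshold in these comparisons. Over 4 knockdown and 4 control arrays the measured log2 difference was -1.63 (adjusted p = 0.0116 from limma). It was -0.70 with normexp background correction and, at -1.83, was not called with shNontarget as the only control (adjusted p = 0.0785 from limma). Of 58717 spots per array, 59.8% to 64.6% stood well above background and 0 were saturated. Precision is limited by the number of arrays. The 75th percentile of intensity, to which each array was scaled, ran from 667 to 838 on control arrays, was 441 and 514 on the shBEX2-1 arrays and 618 and 631 on the shBEX2-2 arrays. Control arrays lay in row 1 and knockdown arrays in row 2 of 1 slide, so that position and group cannot be told apart. The shNontarget arrays stood apart from each other. Their levels differed by more than 1 log2 unit at 34.9% of genes, against 1.76% for shControl, 1.56% for shBEX2-1 and 0.557% for shBEX2-2, and results are therefore also given without them. The label was checked with markers. All 9 bile duct and epithelial markers were well above background on every array, whereas ALB, APOA2, TTR and HNF4A of the 8 hepatocyte markers were above background on no array. Of the hepatocyte markers 2 were well above background on at least 4 arrays, 1 of them on all 8. Hepatocyte markers summed to 4.03 to 8.34 times the array's 75th percentile on control arrays and 6.89 to 7.19 times on knockdown arrays. On all 8 arrays 2 of 6 fibroblast and 2 of 4 endothelial markers were well above background. The summed linear level of the epithelial markers ran from 633 to 895 times the array's 75th percentile on control arrays and from 855 to 1024 times on knockdown arrays, with KRT8 (1 of 9) called. That of 5 leukocyte markers ran from 0.380 to 0.524 and from 0.573 to 0.643 times, with CD14 (1 of 5) called and LAPTM5 above background on no array, and 0 of 8 hepatocyte, 6 fibroblast and 4 endothelial markers were called. The part of these levels in the results below was not tested. In a bulk cell line, fewer cells expressing a gene and less RNA per cell cannot be told apart.

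SREBF2 was lower on every BEX2-knockdown array than on every control array. Its level, given here and below as log2 relative to the 75th percentile of its array, was 1.35 and 1.43 in shControl cells, 1.16 and 1.37 in shNontarget cells, 0.99 and 1.05 in shBEX2-1 cells, and 0.98 and 0.85 in shBEX2-2 cells. The lowest control array (shNontarget replicate 1) thus lay 0.10 above the highest knockdown array, and both sublines were low. The mean fell from 1.33 ± 0.12 (SD, n = 4) to 0.97 ± 0.08 (SD, n = 4), a value 1.28-fold lower on the linear scale. This difference of -0.36 (standard error 0.11, 95% confidence interval -0.61 to -0.10) did not pass the threshold over all genes (adjusted p = 0.0706 from limma). The two-sided exact permutation test gave p = 0.0286, the smallest that 4 arrays against 4 allow, and across all genes 10.7% had every knockdown array below every control array. Without shNontarget replicate 1 the difference was -0.42 and passed the threshold (adjusted p = 0.0220 from limma), as did -0.35 without shNontarget replicate 2 (adjusted p = 0.0496 from limma). In those fits 23.1% and 21.1% of all genes passed. The SREBF2 probe (A_23_P419602 for NM_004599, chromosome 22 of hg19 from 42302199 to 42302258) was printed 2 times, and its spots differed by a median of 0.03 on an array.

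INSIG1 was highest in shBEX2-2 cells. Its level was 2.15 and 2.15 in shControl cells, 2.22 and 2.08 in shNontarget cells, 2.34 and 2.30 in shBEX2-1 cells, and 2.88 and 2.77 in shBEX2-2 cells. The order of the vectors was shControl, shNontarget, shBEX2-1 and shBEX2-2, in which the first pair differed by less than the gap between the shNontarget arrays. All 4 knockdown arrays lay above all 4 control arrays, as they did for 11.4% of all genes. The knockdown mean of 2.57 ± 0.30 (SD, n = 4) and the control mean of 2.15 ± 0.06 (SD, n = 4) differed by 0.42 (standard error 0.16, adjusted p = 0.115 from limma). Relative to shControl, INSIG1 rose 1.60-fold in shBEX2-2 cells (log2 difference 0.68, standard error 0.13, adjusted p = 0.0357 from limma), and relative to shNontarget it rose by 0.68 as well (adjusted p = 0.0413 from limma). Both calls were lost with the replicate number as a replicate block (adjusted p = 0.0569 and 0.0646 from limma). Of the arrays left out in turn, each of the 6 of shControl, shBEX2-1 and shBEX2-2 also ended the call against shControl (adjusted p from 0.104 to 0.307) and that against shNontarget (adjusted p from 0.114 to 0.353), while neither shNontarget array did. In shBEX2-1 cells INSIG1 was 0.17 above shControl (adjusted p = 0.565 from limma). The gene is represented by probe A_33_P3219090 (NM_005542, chromosome 7 of hg19 from 155101843 to 155101902).

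**Figure D1:**
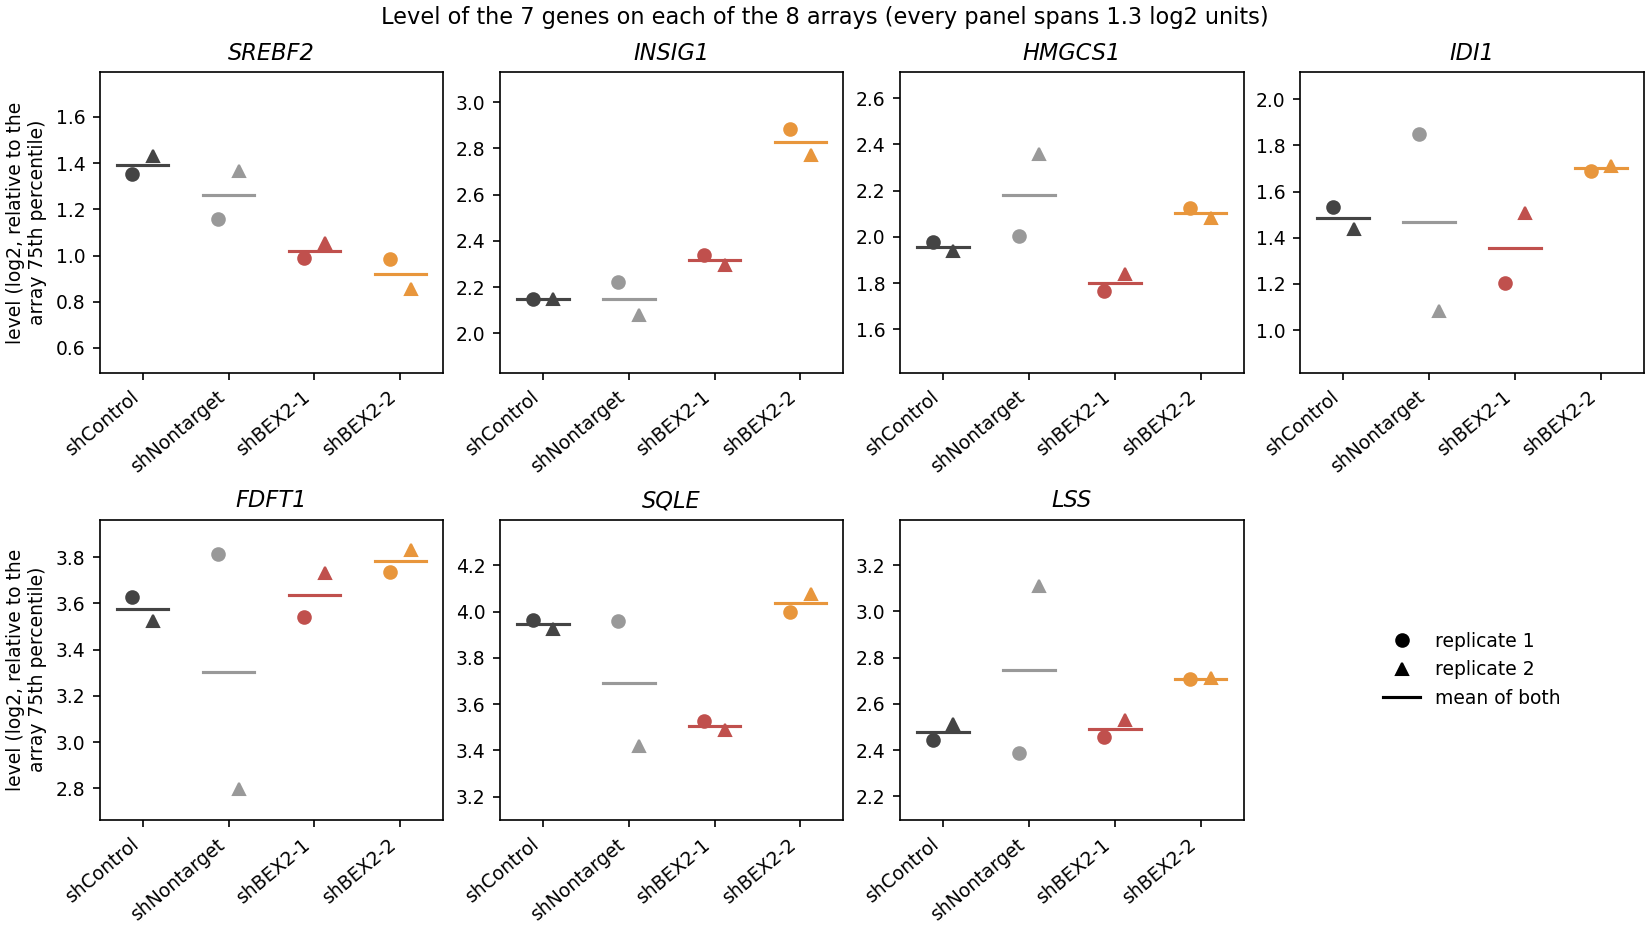
Level of each of the 7 genes (log2 relative to the array's 75th percentile, vertical axis) by vector; points are single arrays and lines the mean of 2. SREBF2 runs from 1.16 to 1.43 on control arrays and from 0.85 to 1.05 on knockdown arrays, INSIG1 reaches 2.88 in shBEX2-2 cells, and the shNontarget arrays are widely separated for FDFT1 (3.82 and 2.80).

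The early enzymes showed no difference past the threshold between knockdown and control. HMGCS1, the synthase that makes HMG-CoA for the mevalonate step, stood at 1.98 and 1.94 in shControl cells, 2.00 and 2.36 in shNontarget cells, 1.76 and 1.84 in shBEX2-1 cells, and 2.12 and 2.08 in shBEX2-2 cells. The shBEX2-1 arrays were the lowest of the 8, shNontarget replicate 2 was the highest, and the arms overlapped (difference -0.12, 95% confidence interval -0.44 to 0.21, adjusted p = 0.651 from limma). IDI1, which interconverts the isoprenoid units IPP and DMAPP, was at 1.53 and 1.44 in shControl cells, 1.85 and 1.08 in shNontarget cells, 1.20 and 1.51 in shBEX2-1 cells, and 1.69 and 1.71 in shBEX2-2 cells. Its highest and its lowest array both belonged to shNontarget, and the difference between the arms was 0.05 (95% confidence interval -0.37 to 0.47, adjusted p = 0.892 from limma). The HMGCS1 probe lies on chromosome 5 of hg19 from 43290117 to 43290176 (A_24_P63522, NM_002130) and the IDI1 probe on chromosome 10 from 1086619 to 1086678 (A_24_P103886, NM_004508).

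The enzymes committed to sterols were likewise not called, and their control arrays spread widely. FDFT1 joins farnesyl units into squalene. Its level was 3.63 and 3.52 in shControl cells, 3.82 and 2.80 in shNontarget cells, 3.54 and 3.73 in shBEX2-1 cells, and 3.74 and 3.83 in shBEX2-2 cells. Apart from shNontarget replicate 2, the arrays lay within 3.52 and 3.83. The arms differed by 0.27 (95% confidence interval -0.21 to 0.75, adjusted p = 0.464 from limma), and this value rested on shNontarget replicate 2, without which it was 0.05. SQLE oxidises squalene in a rate-limiting step. Its level was 3.96 and 3.93 in shControl cells, 3.96 and 3.42 in shNontarget cells, 3.53 and 3.49 in shBEX2-1 cells, and 3.997 and 4.08 in shBEX2-2 cells. Both shBEX2-1 arrays thus lay below every array but shNontarget replicate 2, while the arms as wholes differed by -0.04 (95% confidence interval -0.48 to 0.39, adjusted p = 0.912 from limma). The sign of this SQLE difference turned when either shBEX2-1 array, shControl replicate 1 or shNontarget replicate 1 was left out. LSS closes the ring to lanosterol. Its level was 2.44 and 2.51 in shControl cells, 2.39 and 3.11 in shNontarget cells, 2.46 and 2.53 in shBEX2-1 cells, and 2.71 and 2.71 in shBEX2-2 cells. The difference of -0.01 (95% confidence interval -0.41 to 0.39, adjusted p = 0.978 from limma) also changed sign, to 0.15 without shNontarget replicate 2. A dimmer LSS probe for another transcript (A_23_P211252, NM_001001438) read -2.01, -1.97, -2.30 and -1.10 on the control arrays and -2.77, -2.53, -2.47 and -2.35 on the knockdown arrays, a difference of -0.69, so that the probes of LSS disagree. In hg19 the FDFT1 probe (A_23_P71319, NM_004462) is on chromosome 8 from 11696201 to 11696260, the SQLE probe (A_23_P146284, NM_003129) on chromosome 8 from 126034443 to 126034502, and the main LSS probe (A_24_P110799, NM_002340) on chromosome 21 from 47609299 to 47609358.

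Of the 7 genes, 0 passed the threshold between knockdown and control arrays in limma, beside 13% of all 20450 genes. At an unadjusted p under 0.05 there were 2 (SREBF2 and INSIG1), as were 27.8% of all genes, and the median difference was -0.01 beside 0.03 for all genes. In the other tests run, the 4-vector model called INSIG1 (beside 13.6% of all genes). SREBF2 was called by the methods' t-test after Benjamini-Hochberg adjustment (10.6% of all genes), with the vector as a random block (16.7%) and with shControl as the only control (33.5%). Array weights called SREBF2, INSIG1 and LSS, 3 of the 7, beside 58.7% of all genes.

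Each knockdown vector was then set against each control vector. In shBEX2-1 cells, 0 of the 7 were called against shControl (5.33% of all genes were) and 0 against shNontarget (3.13%). In shBEX2-2 cells INSIG1 was the 1 of 7 called against shControl (7.42% of all genes) and the 1 of 7 against shNontarget (6.2%). These comparisons share control arrays and are not independent of each other. The 5 enzymes gave 30 values in the 6 pairwise comparisons, from -0.53 to 0.48, and none passed the threshold in limma (lowest adjusted p = 0.268). For SREBF2 the difference from shControl was -0.37 in shBEX2-1 cells (limma, adjusted p = 0.215) and -0.48 in shBEX2-2 cells (limma, adjusted p = 0.114). Against shNontarget it was -0.24 (limma, adjusted p = 0.419) and -0.34 (limma, adjusted p = 0.233).

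**Figure D2:**
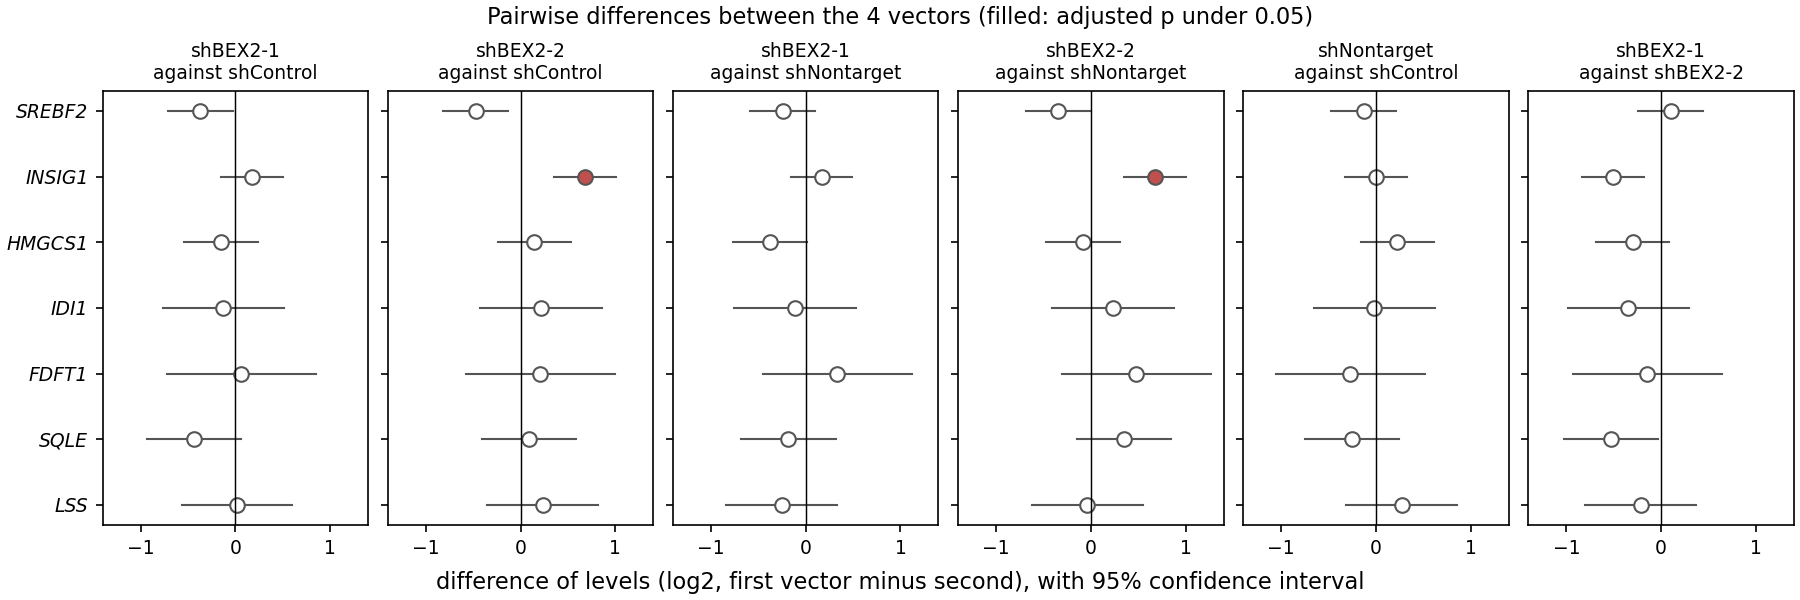
Difference of levels (log2, first vector minus second, horizontal axis) of the 7 genes in the 6 pairwise comparisons, as points with 95% confidence intervals; filled points have an adjusted p under 0.05. The filled points are those of INSIG1 in shBEX2-2 cells, 0.68 against each control vector, and SREBF2 lies left of 0 in the 4 comparisons of a knockdown with a control vector.

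The fit of all 4 vectors shares 1 spread, to which the shNontarget arrays contribute. A fit without both of these arrays, added after the data were seen, leaves each difference as it was and gives smaller standard errors, and in it 43.6% of all genes differed between shBEX2-1 and shControl and 44.1% between shBEX2-2 and shControl. In shBEX2-1 cells SREBF2 (-0.37, limma adjusted p = 0.00720) and SQLE (-0.44, limma adjusted p = 0.00204) were lower, 2 of the 7. In shBEX2-2 cells SREBF2 was lower (-0.48, adjusted p = 0.00208 from limma), and INSIG1 (0.68, adjusted p = 0.000225 from limma) and LSS (0.23, adjusted p = 0.0275 from limma) were higher, 3 of the 7. The dimmer LSS probe read the other way, at -2.01 and -1.97 in shControl cells and -2.47 and -2.35 in shBEX2-2 cells. Neither share, 2 or 3 of 7, exceeds that of all genes.

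The control vectors did not differ from each other past the threshold in any gene (0% of all genes by limma, with 1565 genes at an unadjusted p under 0.05). For the 7 genes the difference of shNontarget from shControl ran from -0.27 for FDFT1 to 0.27 for LSS. The means hid opposite readings of the shNontarget arrays. Relative to the shControl mean, replicate 1 was 0.37 higher for IDI1 and 0.24 higher for FDFT1, and replicate 2 was 0.40 lower and 0.78 lower. Replicate 2 was also 0.52 lower for SQLE but 0.63 higher for LSS and 0.40 higher for HMGCS1. Thus the enzymes of the pathway did not move together on that array. With shNontarget replicate 1 left out, 5 of the 7 (FDFT1, HMGCS1, IDI1, LSS and SQLE) were called between the control vectors, beside 45.2% of all genes. With replicate 2 left out IDI1 was the 1 of 7 called, beside 46.3% of all genes.

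Set against shBEX2-2, most of the sterol genes read lower in shBEX2-1, none of the 7 past the threshold with all 4 vectors fitted. Of the 7 genes 6 were lower in shBEX2-1 than in shBEX2-2 cells, SREBF2 being the exception at 0.10 higher. SQLE differed by -0.53 (95% confidence interval -1.03 to -0.03), INSIG1 by -0.51 (-0.83 to -0.18), IDI1 by -0.34 (-0.99 to 0.30), HMGCS1 by -0.30 (-0.69 to 0.09), LSS by -0.22 (-0.80 to 0.37) and FDFT1 by -0.15 (-0.93 to 0.64). None passed the threshold in the fit of all 4 vectors (adjusted p from 0.340 to 1.00 from limma), in which only 0.00978% of all genes did. Each of these signs held under all 20 other settings tried. For HMGCS1, SQLE, INSIG1 and LSS both shBEX2-1 arrays lay below both shBEX2-2 arrays by more than either subline's own replicate gap. How many of all genes meet this rule was not counted, so it is not read as a result about these genes. In the fit without the shNontarget arrays 14.6% of all genes were called, and among the 7 these were SQLE (limma, adjusted p = 0.00357), INSIG1 (limma, adjusted p = 0.00432) and HMGCS1 (limma, adjusted p = 0.0276).

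Most genes of the wider lists, which hold fatty acid and isoprenoid-branch genes beside those of cholesterol metabolism, read lower in shBEX2-1 than in shBEX2-2 cells too. Across 7 gene lists without the 7 genes, 61 of 76 tested genes were lower, with a median of -0.16, whereas 44.5% of all genes were lower and their median was 0.04. Under quantile normalization 59 of 76 were lower, under median centring 64, and over the alternatives, which include leaving out each array, between 55 and 64. The share of all genes moved as well, from 35.1% lower without a filter on dim probes to 52.8% under median centring. The lists were chosen with earlier results of these data known. By the fit without shNontarget, 20 of the 76 were called lower and 1 higher, beside 1536 lower and 1446 higher of all 20450 genes, and by the fit of all 4 vectors 0 were. The genes named next were chosen after their values were seen. The late sterol enzymes NSDHL (-0.42), EBP (-0.40), HSD17B7 (-0.39) and LBR (-0.35) were called lower, as was MVK (-0.30), the mevalonate kinase. MBTPS2, the protease that makes the second cut in SREBP, differed by -0.63 (adjusted p = 0.00519 from limma). The fatty acid enzymes ACSL3 (-1.05), FADS1 (-0.65) and ELOVL5 (-0.64) were lower, and so were SOAT1 (-0.63) and NCEH1 (-0.89), which make and split cholesteryl esters. MYLIP, a ubiquitin ligase switched on by the sterol sensor LXR, was the 1 gene called higher (0.51, adjusted p = 0.00911 from limma). The 75th percentiles of the subline arrays given above differ in the same sense as these genes, and their part in the result was not tested.

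**Figure D3:**
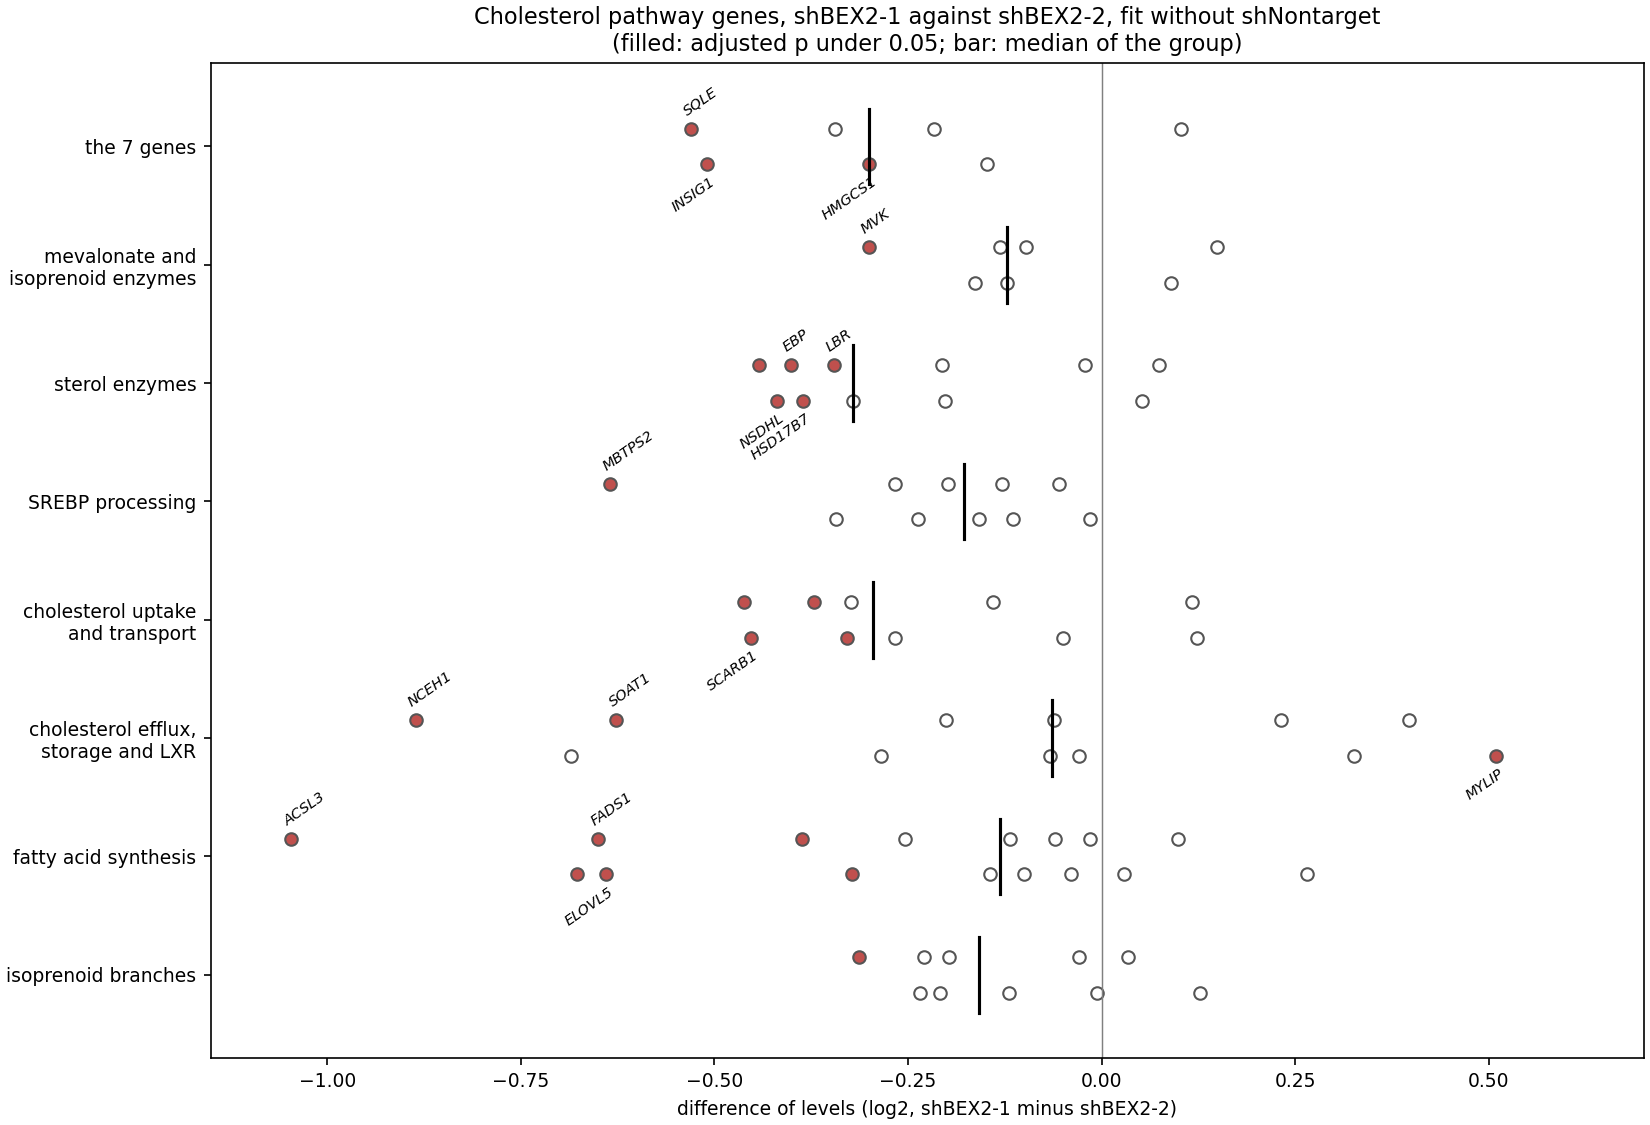
Difference of levels (log2, shBEX2-1 minus shBEX2-2, horizontal axis) of the 7 genes and of 76 further genes in 7 lists that leave out the 7, from the fit without the shNontarget arrays; filled points have an adjusted p under 0.05, names are those of genes named in the text, and bars mark the median of a list. Most points lie left of 0, and MYLIP at 0.51 is the filled point to the right.

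Between all knockdown and all control arrays the wider pathway showed no common direction. Of the 76 further genes 35 were higher and 41 lower, with a median of -0.06, and 5 passed the threshold, 3 higher and 2 lower, a smaller share than the 13% of all genes called in this comparison. None of the list counts that follow is read as a result about its list. Of the 7 other mevalonate and isoprenoid enzymes 0 were called. Of the 11 other sterol enzymes LBR, a nuclear envelope protein that also reduces sterols, was higher by 0.55 (standard error 0.14, adjusted p = 0.0367 from limma). Its call was lost under 10 of 23 alternatives, among them leaving out either shControl or either shBEX2-2 array or shBEX2-1 replicate 1 (adjusted p from 0.0704 to 0.124). Of the 10 other genes that process or retain SREBP 0 were called and 8 were lower, with a median of -0.18. Among these SREBF1 differed by -0.20 (adjusted p = 0.619 from limma), SCAP by -0.05 (adjusted p = 0.883 from limma) and INSIG2 by -0.17 (adjusted p = 0.498 from limma). A second INSIG2 probe read -0.69 and a second SREBF1 probe 0.15, so that both values depend on the probe.

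In the uptake list SCARB1, the receptor for high-density lipoprotein, was the 1 of 10 genes called. Its level was 3.75 and 3.69 in shControl cells, 3.55 and 3.44 in shNontarget cells, 4.28 and 4.06 in shBEX2-1 cells, and 4.58 and 4.66 in shBEX2-2 cells. All knockdown arrays were above all control arrays, and SCARB1 rose by 0.79 (standard error 0.16, adjusted p = 0.0151 from limma), a call lost without either shBEX2-2 array (adjusted p = 0.0603 and 0.0533). In the list of efflux, storage and LXR genes CYP27A1 was the 1 of 12 called. CYP27A1, the mitochondrial sterol 27-hydroxylase, stood at 2.01 and 2.14 in shControl cells, 1.55 and 1.52 in shNontarget cells, 0.44 and 0.70 in shBEX2-1 cells, and 0.82 and 0.89 in shBEX2-2 cells. It fell by 1.09 on the log2 scale (standard error 0.18, adjusted p = 0.00575 from limma). CYP27A1 also passed the threshold in each of the 4 comparisons of a knockdown with a control vector, from -1.51 in shBEX2-1 against shControl to -0.68 in shBEX2-2 against shNontarget. Of 16 fatty acid genes ACSS2, the cytosolic acetyl-CoA synthetase, was lower by 0.58 (adjusted p = 0.0487 from limma). This call was lost under 13 of 23 alternatives, among them the replicate block (adjusted p = 0.0594) and leaving out any array of shControl, shBEX2-1 or shBEX2-2 (adjusted p from 0.0641 to 0.129). Of 10 genes of isoprenoid side branches PDSS1, a subunit that makes the side chain of ubiquinone, was higher by 0.71 (adjusted p = 0.0136 from limma), a call lost under 6 of 23 alternatives, among them leaving out any array of shControl or shBEX2-2 (adjusted p from 0.0509 to 0.0536).

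**Figure D4:**
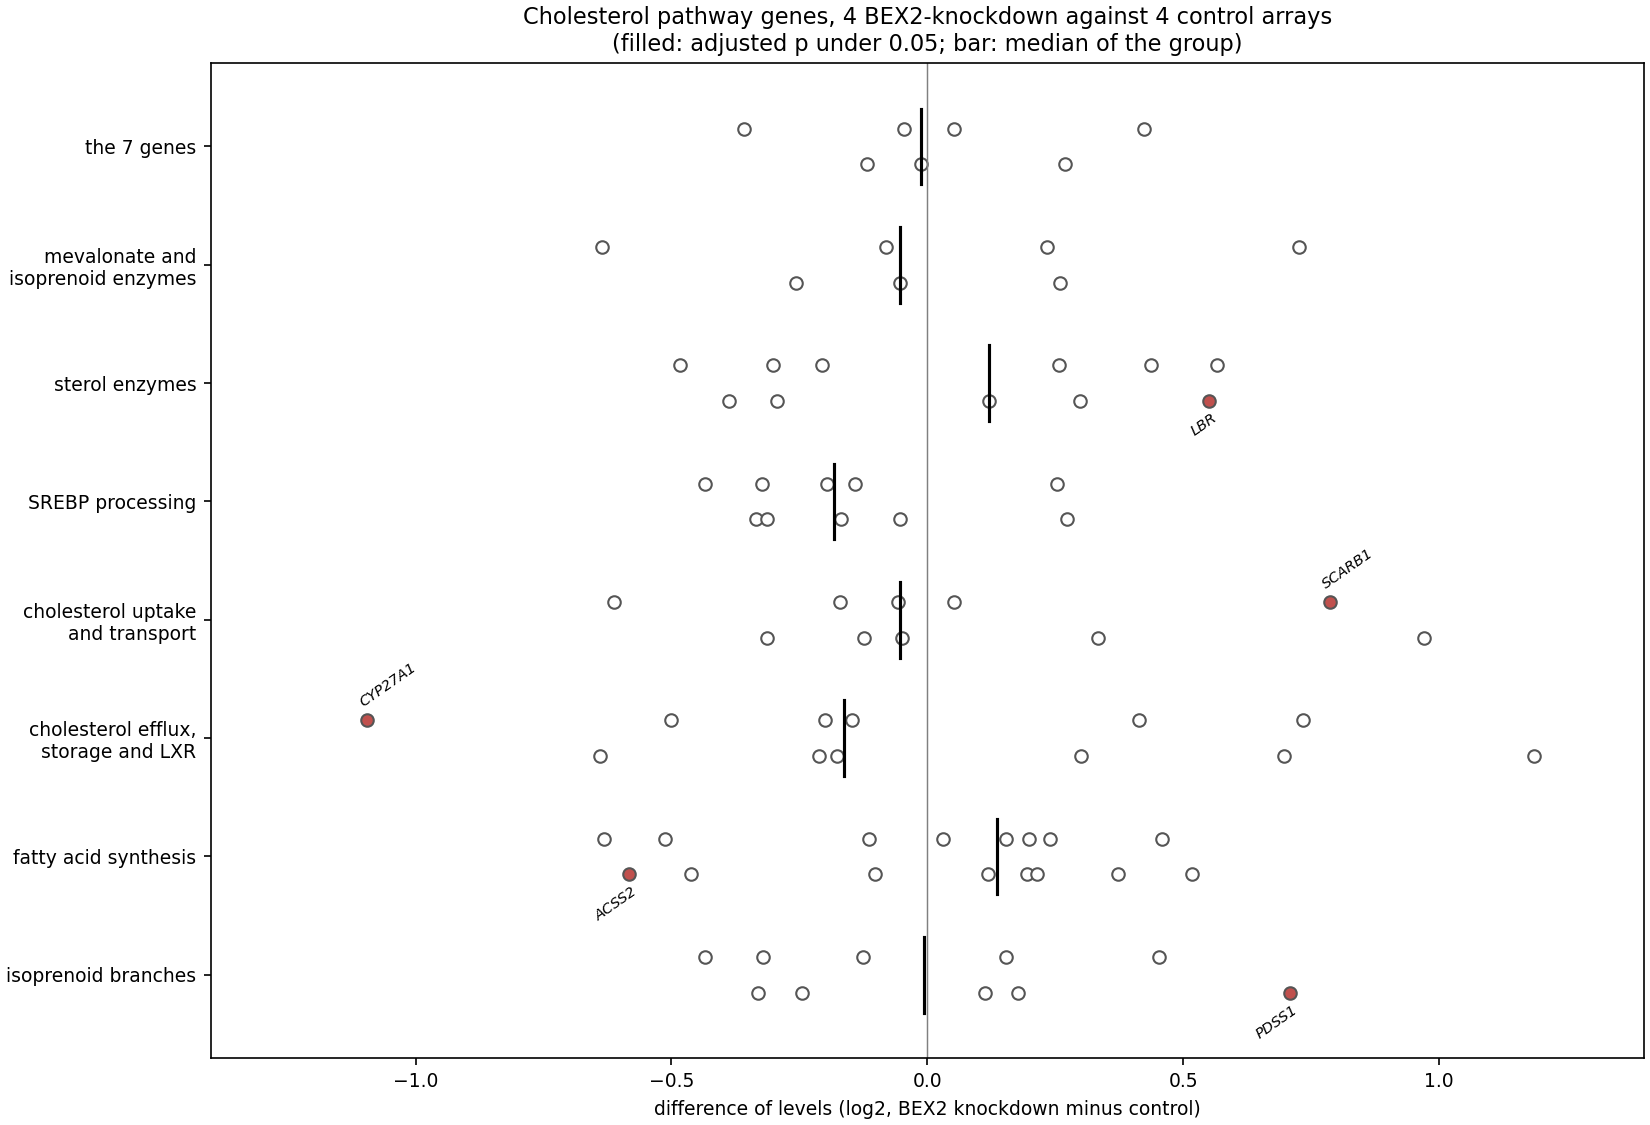
Difference of levels (log2, BEX2 knockdown minus control, horizontal axis) of the 7 genes and of 76 further genes in 7 lists that leave out the 7; filled and named points have an adjusted p under 0.05 and bars mark the median of a list. Points lie on both sides of 0 in every list, and the 5 filled ones are CYP27A1, ACSS2, LBR, PDSS1 and SCARB1.

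Across the 8 arrays SREBF2 and INSIG1 ran opposite to each other (Pearson r = -0.81 over 8 arrays, -0.78 over the 6 without shNontarget), as a description of arrays that share 4 vectors. On the knockdown arrays SREBF2 lay below and INSIG1 above every control array, so that this r partly restates their differences between the arms. Among the enzymes, HMGCS1 with LSS (r = 0.86) and IDI1 with FDFT1 (r = 0.84) were the pairs most alike over 8 arrays, and 5 of the 10 enzyme pairs had a positive r. Without shNontarget all 10 were positive over 6 arrays, from 0.32 to 0.91, and the highest were HMGCS1 with IDI1 (-0.11 over 8 arrays, 0.91 over 6) and HMGCS1 with SQLE (0.04 and 0.90). FDFT1 with LSS turned from -0.75 to 0.79. The named genes most like SREBF2 over the 8 arrays were USP54 (r = 0.992), RNF146 (0.989), TP53INP1 (0.988), YPEL2 (0.987) and JHDM1D (0.986). Their differences between the arms, whose direction the choice by likeness to SREBF2 fixed, ran from -0.67 for USP54 to -1.67 for TP53INP1. Those most like the mean profile of the 7 genes, each gene first scaled to unit spread, were GPR64 (r = 0.987), PPP1CC (0.973), MTFR1 (0.968), NETO2 (0.967) and SLC31A2 (0.966), which differed by -0.19 to 0.02 between the arms. Each of them was lower on both shBEX2-1 arrays than on both shBEX2-2 arrays. This follows from their choice by likeness to a profile in which 6 of the 7 genes were lower in shBEX2-1, and adds no evidence.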

How the data were processed

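RNA of 8 HuCCT1 samples was labelled with Cy3, hybridized to Agilent arrays and read with Agilent Feature Extraction 10.7.3.1, per the labels. The deposited intensity of a spot is background-subtracted and detrended within its array and not scaled between arrays. The authors' table of the whole series gives the same intensities, within 0.497%. Probe coordinates are those of the array design (hg19).

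Control spots were omitted and non-uniformity outliers set missing. The 75th percentile of each array was subtracted on the log2 scale. Spots of a probe were averaged, a probe had to be well above background on 4 or more of the 8 arrays, and a gene was represented by its brightest probe. Arms and vectors were compared over the resulting 20450 genes with limma 3.58.1 and statmod 1.5.0 in R 4.3.3 (lmFit, then eBayes with an intensity trend), with Benjamini-Hochberg adjustment over all genes and a threshold of 0.05. The fits were tested on simulated data. Tables and figures used Python 3.11.15 with matplotlib 3.10.9, numpy 2.4.6, pandas 2.3.3 and scipy 1.17.1.

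Replicate numbers were taken as pairs because file names assign each number a day of unstated meaning. The difference between replicates, correlated over genes between vectors, gave r from -0.06 to 0.26. The number served as a block in an alternative. Other alternatives concerned scaling, background correction, the filter and choice of probes, the model, the control used and each array left out. The rank product method of the study was not run, and its CD274-knockdown arrays were not used here.

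The 7 genes, the pathway and marker lists and the tests were chosen with earlier results of these data known. Named beside the 7 genes are BEX2, SREBF1, SCAP and INSIG2, up to 4 called genes of each list with the largest change, and the 5 genes (named in a RefSeq gene table, as 13555 of the tested ones are) most correlated with SREBF2 and with the mean profile of the 7. Others are stated to be chosen after their values were seen. Some genes of the lists enter the counts but are not reported here by name.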

Additional observations from a re-analysis of the deposited data

Results flagged for a closer look

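Among the control arrays, shNontarget replicate 2 lay far from the other 3 for 2 of the named genes. HMGCS1 was at 2.36 there and between 1.94 and 2.00 on the others, with a gap to the nearest array of 0.842 of the whole range. SQLE was at 3.42 against 3.93 to 3.96, with a gap of 0.932 of the range. Both shares exceed Dixon's critical value for groups of 4, which chance passes in about 1 group in 20, and 32 groups were looked at.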

How the results depend on the processing

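The shNontarget arrays disagreed with each other, and 2 arrays per vector limit what can be called. Between knockdown and control, 0 of the 7 genes were called and 1 was under the 4-vector model, the vector as a random block, shControl as the only control and the methods' t-test, 3 with array weights, and 0 to 1 with an array left out. Against shControl, shBEX2-1 went from 0 to 2 with array weights, with the 4 arrays of the vectors alone and without both shNontarget arrays (41.3%, 38% and 43.6% of all genes), and its count varied with the array left out. The same alternatives took shBEX2-2 from 1 to 3, 4 and 3 (49.7%, 46.9% and 44.1% of all genes). Median centring, the replicate block and no intensity trend gave 0, and the count varied with the array left out. Against shNontarget, shBEX2-1 gave 0 to 5 with an array left out (5 without shNontarget replicate 1, beside 54.7% of all genes). For shBEX2-2, 1 became 0 under median centring, no filter on dim probes, the replicate block, array weights, no intensity trend and the 4 arrays alone, and 0 to 7 with an array left out (7 without shNontarget replicate 1, beside 52.8% of all genes). Between the control vectors, leaving out an array gave 0 to 5 (up to 46.3% of all genes). Between the sublines, 0 became 3 with array weights, the 4 arrays alone and without both shNontarget arrays (14.1%, 13.2% and 14.6% of all genes). That count, too, varied with the array left out. Counts given here without a share of all genes are not read as results about the 7 genes.

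Over all genes, 2649 were called between knockdown and control, and between 340 and 12012 under the alternatives. Differences near 0 changed sign. Between knockdown and control HMGCS1 was 0.0702 with array weights, SQLE 0.0828 with shNontarget as the only control and from -0.18 to 0.04995 with an array left out, and IDI1 from -0.0792 to 0.18 with an array left out. LSS was 0.00836 under median centring, 0.21 with array weights, 0.12 with shControl as the only control and from -0.0867 to 0.15 with an array left out. SCAP ran from -0.19 to 0.10 with an array left out and was 0.0222 with array weights. For shNontarget against shControl INSIG1 was -0.0363 under quantile normalization, -0.00853 with normexp and from -0.0698 to 0.0760 with an array left out. The replicate block ended the 2 INSIG1 calls in shBEX2-2 cells (log2 difference 0.68 in each) and changed no other call of the 7 genes. LBR, ACSS2, PDSS1, SCARB1 and CYP27A1 kept their direction under all 23 alternatives, and CYP27A1 was not called under 1. The array weights of the 4-vector model did not converge fully.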
